A study of Mus musculus with 6 samples.

Results

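The clustered replication-dependent histone genes were taken as every protein-coding row of the deposited expression table whose symbol begins with Hist1h, Hist2h, Hist3h or Hist4h. The rule gave 67 of the 36976 genes in the table. Of these, 6 encode linker histone H1, 19 encode H2A, 18 encode H2B, 11 encode H3 and 13 encode H4. Of the 55 with a Hist1 symbol, all on chromosome 13, 54 lay together in the Hist1 cluster and Hist1h2al (mm9 chr13:51298057-51298434) lay apart from it. The Hist2 cluster on chromosome 3 held 9, the Hist3 cluster on chromosome 11 held 2, and Hist4h4 lay alone on chromosome 6.

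RNA-Seq had been run on long-term (LT) stem cells of chronic myelogenous leukemia (CML), sorted from the bone marrow of C57BL/6 mice that carried SCL-tTA and TRE-BCR-ABL1 together. In these tet-CML mice doxycycline held the BCR-ABL1 oncogene silent until 5 weeks after birth, and cells were sorted 5 weeks after its withdrawal. The comparison set 3 Gdpd3+/+ libraries (replicates 1, 2 and 3) against 3 Gdpd3-/- libraries (replicates 5, 6 and 7), and asked what changes in the stem cells that lack Gdpd3, a lysophospholipase D. Cells came from pooled animals, 22 males with 12 females for Gdpd3+/+ and 5 males with 5 females for Gdpd3-/-. Both genotypes carried both transgenes.

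Replication-dependent histone genes are transcribed in S phase, when newly made DNA is wrapped into nucleosomes of H2A, H2B, H3 and H4 and bound by the linker H1. They lack introns, and their mRNAs normally end in a conserved stem-loop instead of a poly(A) tail. The stem-loop binding protein Slbp and the U7 small nuclear ribonucleoprotein form that end. The libraries were made with a kit that primes cDNA on poly(A), so the values below report histone transcripts that the primer reached, and polyadenylated forms could not be told apart from the others.

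A search of the GENCODE M21 transcripts placed a stem-loop of 16 bases, with 6 paired bases on either side of a loop of 4, after the stop codon of 45 of the 67 members. It lay 22 to 59 bases past the stop codon, with a median of 32, and all 45 had 6 of 6 stem bases paired. The pattern sought fixed most stem bases as pairs and set C or T against A or G at the rest. Full pairing was thus largely set by the search, which also fixed part of the loop. Among all 55450 genes of that annotation 59 (0.106%) held the pattern anywhere in a transcript. The 8 forms found are shown because their stems set H4 apart from the other classes, with the loop in capitals and the stem in lower case.
Shared by 25 members (3 H1, 10 H2A, 8 H2B and 4 H3 genes): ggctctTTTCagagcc
Shared by 7 H4 members, Hist1h4d and Hist1h4h among them: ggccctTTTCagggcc
Shared by 6 members (1 H1, 2 H2B and 3 H3 genes): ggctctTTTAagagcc
Hist2h4 and Hist1h4i: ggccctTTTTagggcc
Hist1h4j and Hist1h4b: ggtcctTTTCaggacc
Hist1h4a: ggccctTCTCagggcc
Hist1h3g: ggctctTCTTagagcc
Hist2h2ac: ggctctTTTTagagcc
The stems of the 12 H4 genes differed from those of the 33 other genes in every case, while the commonest loop was the same in both sets. In the annotated transcripts of the other 22 members, among them Hist1h2bc, Hist1h1b and Hist1h3i, the pattern was not found, which says only that these letters are not in those models.

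Expression was given as FPKM, that is fragments divided by the length of the gene model and by the depth of the library. Multiplied by gene length, each value was a whole number of hundredths of a fragment, as when a fragment that maps to several places is divided among them. This reading rests on the values: 47.2% to 55.2% of those above 0 in each library were whole fragments. Were the same steps taken as covered bases, the fragment totals given here would have another unit. The total of fragments on genes recovered in this way was 49753146, 62762437 and 61283166 in Gdpd3+/+ replicates 1 to 3, and 21334716, 36421439 and 25136824 in Gdpd3-/- replicates 5 to 7. Every Gdpd3-/- library was thus shallower than every Gdpd3+/+ library, and low values are less precise there. Fractions of a fragment were present in all 6 libraries for 56 of the 67 members, and which genes shared those fragments was not tested. The level of a single copy among near-identical genes is therefore uncertain.

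The disrupted gene was read first. Gdpd3 (ENSMUSG00000030703.7, chromosome 7) had 7.30, 3.29 and 2.95 FPKM in Gdpd3+/+ replicates 1 to 3, and 0.110, 0.0129 and 0.681 in Gdpd3-/- replicates 5 to 7. All 3 Gdpd3-/- libraries were lower than the lowest Gdpd3+/+ library, with 2.5, 0.5 and 18.2 recovered fragments against 387, 220 and 193 (two-sided exact permutation test of mean FPKM, p = 0.1, which no comparison of 3 with 3 libraries can go below). On the log2 scale Gdpd3 differed by -4.0 (0.77 as standard error, adjusted p = 0.0588 by limma, and 0.0106 to 0.269 over the alternatives). A gene on the other strand overlaps Gdpd3 by 190 exon bases, and whether counting used strand is not given in the sources used here. Across the 67 members, Pearson's r of log2(FPKM + 0.1) was 0.987 to 0.995 between Gdpd3+/+ libraries and 0.941 to 0.956 between Gdpd3-/- libraries. Gdpd3-/- replicate 7 stood closer to the Gdpd3+/+ libraries (0.973 to 0.98) than to its own group (0.941 and 0.956), where genes are not independent replicates. Calls among the members are therefore given with and without it.

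Genes that define the sorted population were read next. Of the 9 stem cell genes examined, Kit had 125 to 131 FPKM in Gdpd3+/+ and 108 to 136 in Gdpd3-/- libraries, Slamf1 (CD150) had 10.1 to 11.7 and 5.41 to 13.2, and none of the 9 was called different by limma (2 at an unadjusted p under 0.05, which 22.2% of all genes tested reached). Of 6 genes for surface proteins that the sort excludes, none was at 0 in every library. Flt3 (CD135) had 9.80 to 11.01 FPKM in Gdpd3+/+ and 36.8 to 46.5 in Gdpd3-/- libraries (log2 fold change 1.93, adjusted p = 0.00562 by limma, 0.00414 to 0.0705 over the alternatives), and Cd48 had 39.8 to 44.8 and 51.6 to 92.2. Itgam (CD11b) had 19.3 to 22.3 and 1.69 to 13.4 FPKM, lower in every Gdpd3-/- library but not called (log2 fold change -1.82, adjusted p = 0.193 by limma, 0.0803 to 0.449 over the alternatives). Ly6g and Cd4 overlapped between the genotypes, and Cd8a was at 0.00120 FPKM or less in each library. No gene in the table was called without Gdpd3+/+ replicate 1. Fewer cells of a type and less RNA per cell cannot be told apart in such bulk libraries.

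The family as a whole was at a like level in both genotypes. Summed over the 67 members, FPKM was 2279, 2718 and 2856 in Gdpd3+/+ replicates 1 to 3 and 2781, 2884 and 2469 in Gdpd3-/- replicates 5 to 7. The groups overlapped, and the ratio of means was 1.04 (log2 ratio 0.05, and -0.17 with TMM scaling, so its sign depends on the scaling), less than the spread between replicates (2618 ± 301 against 2711 ± 216, SD, n = 3). In fragments, members took 0.130%, 0.153% and 0.161% of a Gdpd3+/+ library and 0.157%, 0.163% and 0.145% of a Gdpd3-/- library. H2A made up most of the sum, 74.1% to 78.3% of it in each library, and H4 another 12.3% to 14.8%, although nucleosomes hold the core histones in equal number. Summed FPKM of H2A was 1725, 2129 and 2190 in Gdpd3+/+ and 2108, 2151 and 1830 in Gdpd3-/- libraries. H2B alone gave sums that did not overlap, with 119, 122 and 141 in Gdpd3+/+ and 159, 172 and 155 in Gdpd3-/- libraries. The log2 ratio for H2B was 0.35. With TMM scaling it was 0.13 and the sums overlapped, with 128, 130 and 154 against 143, 164 and 144. Without Hist1h2bc, the other 17 H2B genes overlapped as deposited, with summed FPKM of 86.2, 90.5 and 102 in Gdpd3+/+ and 92.2, 92.8 and 98.0 in Gdpd3-/- libraries. With TMM scaling they were lower in every Gdpd3-/- library, at 83.2 to 90.7 against 93.2 to 112, so their direction depends on the scaling. Summed FPKM of H1, H3 and H4 overlapped between the genotypes (90.2 ± 4.11, 50.2 ± 5.31 and 335 ± 37.4 in Gdpd3+/+ against 91.7 ± 12.3, 54.1 ± 3.27 and 374 ± 49.1 in Gdpd3-/-, SD, n = 3).

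**Figure D1:**
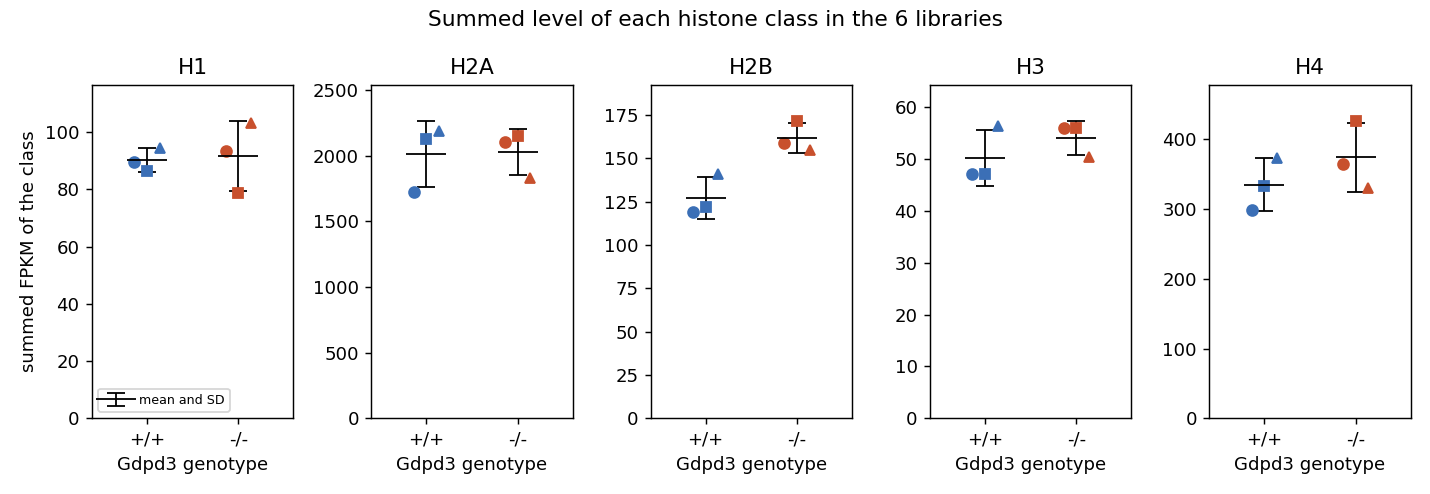
Summed FPKM of each histone class (vertical axes from 0) in the 3 Gdpd3+/+ libraries (blue; circle, square and triangle are replicates 1, 2 and 3) and the 3 Gdpd3-/- libraries (orange; replicates 5, 6 and 7), with the mean and SD as bars. Only in the H2B panel do the groups not overlap, with 119 to 141 against 155 to 172; after TMM scaling, not drawn, they overlap there too (128 to 154 against 143 to 164).

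Single genes were compared by limma on log2(FPKM + 0.1), a scale that understates the change of low genes, among the 24689 genes whose mean FPKM reached 0.05, and called at an adjusted p under 0.05. Of the 67 members 66 passed this filter; Hist1h1t, the testis form of H1, was listed at 0 in every library. Hist1h2bc alone was called higher in Gdpd3-/- cells and none was called lower, that is 1 and 0 of 66, where 1.09% and 0.616% of all genes tested were called higher and lower (1.71% in either direction). In genes these shares were 270 and 152. The balance turned to 112 and 254 with TMM scaling and to 119 and 206 with quantile normalization, where no member was called. At an unadjusted p under 0.05, 9 members were higher and 5 lower of 66 by the same limma test, against 16.5% and 5.76% of all genes tested, and voom on recovered fragments likewise called Hist1h2bc higher and no member lower. Every Gdpd3-/- library lay above every Gdpd3+/+ library for 10 of 66 members and below for 5, against 23.5% and 8.27% of all genes tested. With TMM scaling these counts were 6 and 10, against 14.1% and 15.8% of all genes. The members' counts were thus near the background or, for higher genes, under it. Over all genes tested the log2 fold change had a median of 0.24, and over the members 0.02, or -0.22 relative to all genes. With TMM scaling the medians were 0.04 and -0.20, and with quantile normalization -0.01 and -0.16, so the sign of the members' median depends on the scaling while it lay below that of all genes in each. Over the 15 alternatives the difference from all genes was -0.33 (without Gdpd3+/+ replicate 1) to -0.12 (at a mean FPKM of at least 1). As deposited 37 of 66 members had a log2 fold change above 0, and 17 with TMM scaling, where 65.1% and 52.6% of all genes tested did.

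**Figure D2:**
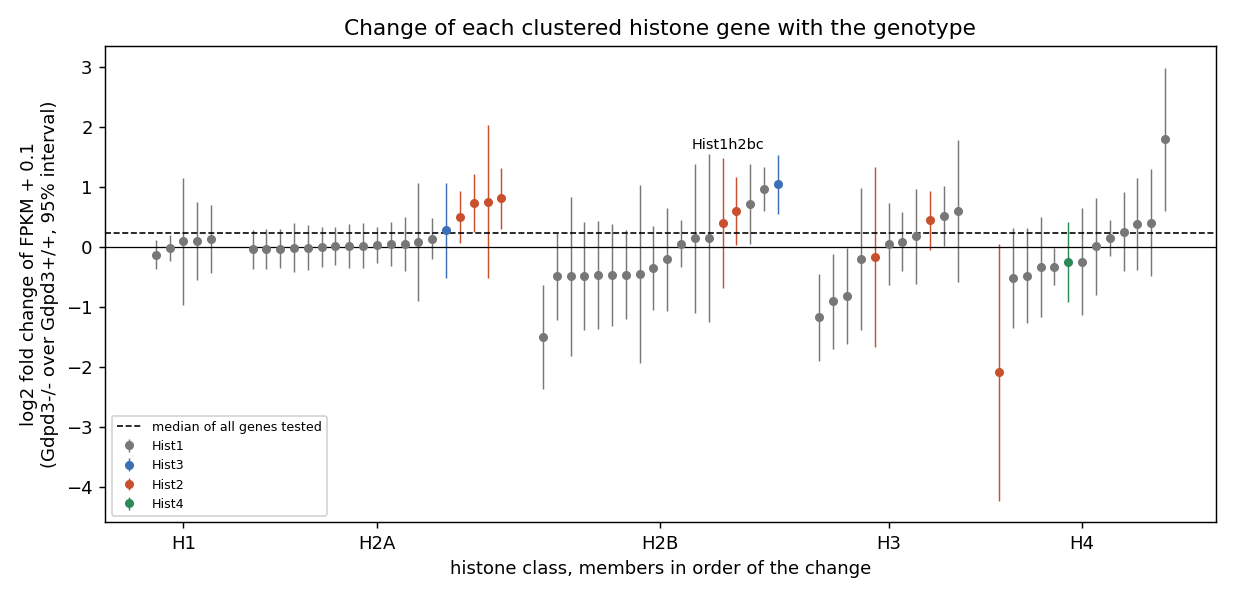
Log2 fold change with its 95% interval for each of the 66 members tested, by histone class and colored by cluster; the dashed line is the median of all genes tested (0.24). Members of Hist1 (gray) in class H2A lie within -0.03 and 0.14, and those of Hist2 (orange) lie above the dashed line in 7 of 9 cases, also after TMM scaling (7 of 9 above 0, where 52.6% of all genes are).

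Without Gdpd3-/- replicate 7 the same test called 5 members higher and 3 lower of 66. All genes were called more often too, 9.83% higher and 4.36% lower, so these counts are not a result about the members. The 5 higher were Hist1h2bc, Hist1h4h, Hist2h2aa1, Hist2h2aa2 and Hist3h2ba, and the 3 lower Hist2h4, Hist1h2bm and Hist1h3f. No member was called when Gdpd3-/- replicate 5 or any Gdpd3+/+ library was left out, and only Hist3h2ba without Gdpd3-/- replicate 6.

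Hist1h2bc (ENSMUSG00000018102.4, mm9 chr13:23776068-23784357, plus strand), an H2B gene of the Hist1 cluster, had 32.6, 31.4 and 39.0 FPKM in Gdpd3+/+ replicates 1 to 3 and 66.6, 79.0 and 57.1 in Gdpd3-/- replicates 5 to 7. The groups did not overlap, and replicate 7 was the lowest of the Gdpd3-/- libraries. The log2 fold change was 0.97 (95% interval 0.61 to 1.33, adjusted p = 0.0418 by limma), and 0.75 with TMM scaling. Its adjusted p ranged from 0.0132 to 0.236 over the 15 alternatives, and the call was lost in 11 of them. Leaving out a library gave 0.0804, 0.0510 and 0.0132 without Gdpd3-/- replicate 5, 6 or 7 in turn, and 0.236, 0.215 and 0.169 without Gdpd3+/+ replicate 1, 2 or 3 (adjusted p by limma), so only the omission of replicate 7 kept the call. The log2 fold change was above 0 in all 15. Over all 6 libraries Hist1h2bc had the highest mean of the H2B genes, at 35.2% of the class. Hist1h2bg was above it in every Gdpd3+/+ library (mean 45.0 against 34.3 FPKM) and below it in every Gdpd3-/- library (47.0 against 67.6). The values of Hist1h2bc rest on 1045 to 2119 recovered fragments per library, with fractions of a fragment in all 6. Unlike most members, its gene model of 736 bases is split into 2 blocks of exon. Which form of its transcript gave the fragments was not tested.

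Its divergent neighbor Hist1h2ac, an H2A gene whose start lies 250 bases away in the file's mm9 coordinates, did not move with it. Hist1h2ac had 17.01, 19.8 and 20.5 FPKM in Gdpd3+/+ and 16.1, 21.3 and 21.0 in Gdpd3-/- libraries, and these overlapped (log2 fold change 0.02, -0.20 with TMM scaling and -0.08 with quantile normalization, 95% interval -0.34 to 0.38 as deposited, adjusted p = 0.944 by limma). Because both genes start on the DNA between them, the RefSeq window of Hist1h2ac (250 bases before to 50 after its start, GRCm38.p6 chr13:23683910-23684209, minus strand) is shown, with matches on either strand to the TATA motif (TATAAA), to the CCAAT box and to the octamer core (ATGCAAA) in capitals.
Hist1h2ac: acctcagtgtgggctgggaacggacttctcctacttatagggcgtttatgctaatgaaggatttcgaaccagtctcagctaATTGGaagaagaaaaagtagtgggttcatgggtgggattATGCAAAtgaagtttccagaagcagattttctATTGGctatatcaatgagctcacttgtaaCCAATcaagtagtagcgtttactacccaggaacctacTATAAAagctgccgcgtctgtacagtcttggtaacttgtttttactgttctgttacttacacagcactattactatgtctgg
The window holds 1 TATAAA, 3 CCAAT matches and 1 octamer core, and the 3 motifs do not overlap in it. Of the 67 members 60 had a RefSeq window of their own, and Hist1h2bc, Hist2h2be, Hist2h4, Hist1h3f, Hist1h3a, Hist1h2al and Hist1h2ap did not. CCAAT was present in 51 of 60 (85.0%), against 37.4% of all 32851 windows of that length, and TATAAA in 35 (58.3%) against 13.6%. A match on either strand and at any place in the window was counted. Windows of divergent H2A and H2B genes can overlap, so the same site can count for both genes. The TATAAA of the Hist1h2bn window, for example, is also that of the Hist1h2ak window. The counts are thus not of genes with a TATA motif of their own. Hist1h2be alone had 2 windows, of which the first listed was counted. The octamer core occurred in 7 of 17 H2A and 6 of 16 H2B windows, or 7 of 16 with the other window of Hist1h2be, and in 4.63% of all windows. The octamer of Hist1h2ah and Hist1h2bk is the same site, as are those of Hist1h2ae with Hist1h2bg and of Hist1h2aa with Hist1h2ba. The counts of the H2A and H2B classes are thus not independent. CCAAT was in every H1, H2A, H2B and H3 window examined but in 3 of 12 (25%) of H4. A match is a description of these letters, and no match says nothing of the factor.

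The other H2B genes of the Hist1 cluster were mixed, and 10 of the 15 in that cluster had a log2 fold change under 0, as did 34.9% of all genes tested (13 and 47.4% with TMM scaling). Hist1h2bg, the most abundant in Gdpd3+/+ and the next after Hist1h2bc in Gdpd3-/-, had 49.1, 38.6 and 47.4 FPKM in Gdpd3+/+ and 38.1, 49.2 and 53.8 in Gdpd3-/- libraries. Hist1h2bj had 6.04, 9.49 and 12.5 against 5.60, 9.82 and 4.89. Both overlapped between the genotypes (adjusted p = 0.849 and 0.475 by limma). Hist1h2bm (ENSMUSG00000058189.3, chromosome 13) had 1.998, 2.87 and 2.20 FPKM in Gdpd3+/+ and 0.839, 0.497 and 1.04 in Gdpd3-/- libraries, so the groups did not overlap. Its log2 fold change was -1.49 (adjusted p = 0.0868 by limma, 0.0362 to 0.318 over the alternatives), and only 9.38 to 13.7 recovered fragments per Gdpd3-/- library lie behind it. Hist1h2be, which shares 163 exon bases with another gene on the same strand, had 0.898, 1.08 and 1.03 FPKM in Gdpd3+/+ and 1.58, 1.85 and 1.74 in Gdpd3-/- libraries, higher in each but not called (adjusted p = 0.196 by limma). The median log2 fold change of the 18 H2B genes was -0.27 as deposited and -0.49 with TMM scaling.

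Hist3h2ba (ENSMUSG00000056895.2, mm9 chr11:58762413-58763032, plus strand), an H2B gene of the small Hist3 cluster, was higher in every Gdpd3-/- library. It had 5.15, 4.24 and 4.84 FPKM in Gdpd3+/+ and 12.4, 7.85 and 9.88 in Gdpd3-/- libraries. The log2 fold change was 1.04 (95% interval 0.56 to 1.53), with an adjusted p of 0.0607 by limma that ranged from 0.0426 to 0.273 over the alternatives. Its recovered fragments had fractions in 2 of 6 libraries. Its neighbor Hist3h2a gave 8.75, 11.7 and 22.5 FPKM in Gdpd3-/- replicates 5 to 7 and 10.6 to 11.2 in Gdpd3+/+ libraries. Its log2 fold change was 0.28, and -0.10 without replicate 7, and it shares 708 exon bases with Trim17 on the same strand. The Hist3h2ba window (RefSeq, GRCm38.p6 chr11:58948661-58948960, plus strand) is shown with the same motifs in capitals, because its log2 fold change was the highest of the 18 H2B genes. It has no match to the octamer core.
Hist3h2ba: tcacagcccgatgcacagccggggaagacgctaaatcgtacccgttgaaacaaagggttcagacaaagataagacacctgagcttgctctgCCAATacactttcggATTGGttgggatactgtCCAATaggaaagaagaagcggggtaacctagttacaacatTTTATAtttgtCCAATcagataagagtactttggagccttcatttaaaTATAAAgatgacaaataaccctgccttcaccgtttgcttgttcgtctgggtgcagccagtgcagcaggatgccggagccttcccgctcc

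H2A was dominated by near-identical copies. Hist1h2ap had 631, 770 and 806 FPKM in Gdpd3+/+ and 738, 769 and 648 in Gdpd3-/- libraries. Hist1h2ao had 624, 762 and 799 against 727, 760 and 641. Their coding sequences are identical over 393 bases, and the ratio of Hist1h2ao to Hist1h2ap was 0.985 to 0.991 in every library, so the pair cannot be resolved. Hist1h2ag followed with 148, 193 and 186 FPKM in Gdpd3+/+ and 192, 181 and 160 in Gdpd3-/- libraries. All 3 overlapped between the genotypes (log2 fold changes -0.03, -0.03 and 0.02, adjusted p = 0.909, 0.896 and 0.941 by limma). The ratio to Hist1h2ap varied 1.23-fold or less over the 6 libraries for 10 H2A genes, Hist1h2ao among them, all of the Hist1 cluster. Among 106 pairs of H2A genes with coding sequences of equal length the median identity was 96.4%. Such a fixed ratio is what dividing shared fragments would give, and also what proportional expression would give; which applied was not tested.

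**Figure D3:**
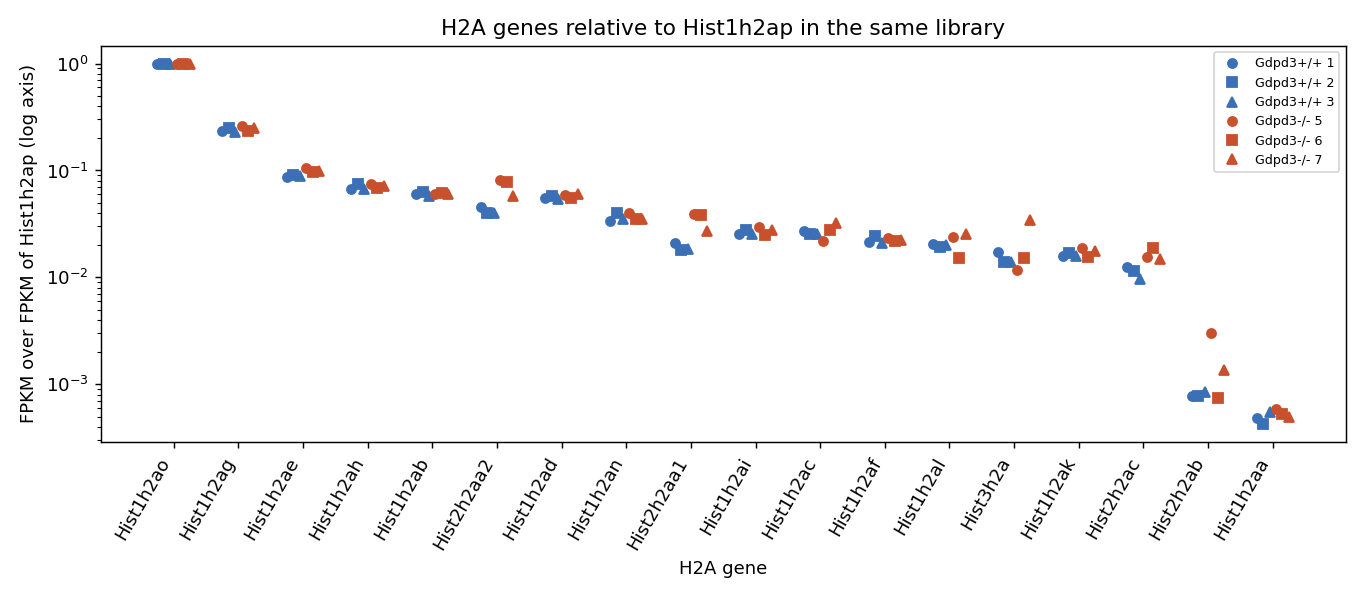
FPKM of each H2A gene divided by that of Hist1h2ap in the same library (log axis), 1 point per library, Gdpd3+/+ in blue and Gdpd3-/- in orange. 10 Hist1 genes keep their ratio within 1.23-fold. Hist2h2aa1, Hist2h2aa2 and Hist2h2ac lie higher in every Gdpd3-/- library, at 0.0273 to 0.0394 against 0.0180 to 0.0210 for Hist2h2aa1. So does Hist1h2ae, which is among the 10, at 0.0962 to 0.107 against 0.0868 to 0.0912.

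In the Hist2 cluster, 3 of 4 H2A genes lay higher in every Gdpd3-/- library, as did 23.5% of all genes tested, while Hist2h2ab overlapped. With TMM scaling only Hist2h2aa1 of the 4 did. Hist2h2aa1 (ENSMUSG00000063954.6, mm9 chr3:96049461-96050038, plus strand) had 13.2, 13.9 and 14.9 FPKM in Gdpd3+/+ and 29.1, 29.4 and 17.7 in Gdpd3-/- libraries. Hist2h2aa2 (ENSMUSG00000064220.4, mm9 chr3:96043639-96044216, minus strand) had 28.8, 30.5 and 32.4 against 60.3, 59.7 and 37.0. The groups did not overlap for either gene, and replicate 7 was nearest to Gdpd3+/+. Their log2 fold changes were 0.82 and 0.74 (adjusted p = 0.0956 and 0.103 by limma), and neither was called with all 6 libraries. Without Gdpd3-/- replicate 7 they were 1.06 and 0.97, with adjusted p of 0.00750 and 0.00683 by limma, where the alternatives ranged up to 0.313 and 0.325. The coding sequences of the pair are identical, so these are not 2 independent observations, and Hist2h2aa1 shares 562 exon bases with Hist2h3c1 on the same strand. Hist2h2ac had 7.91, 8.86 and 7.87 FPKM in Gdpd3+/+ and 11.4, 14.5 and 9.62 in Gdpd3-/- libraries. Its divergent partner Hist2h2be, 240 bases away, had 2.12, 2.73 and 2.40 against 4.61, 3.44 and 3.21. Here both genes of a divergent pair were higher in every Gdpd3-/- library as deposited, and Hist2h2be alone with TMM scaling, although neither passed the test (adjusted p = 0.171 and 0.200 by limma). Summed over the 9 Hist2 genes FPKM was 63.7, 69.4 and 71.2 in Gdpd3+/+ and 123, 116 and 83.7 in Gdpd3-/- libraries, a ratio of means of 1.58. With TMM scaling these sums overlapped narrowly, at 68.9 to 77.8 against 111, 110 and 77.4, and only through replicate 7. Their median log2 fold change was 0.50 as deposited and 0.28 with TMM scaling, against 0.01 and -0.21 for the 54 Hist1 genes tested. The difference between clusters was not tested.

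In H4, Hist1h4d held 77.2% of the class. It had 231, 254 and 292 FPKM in Gdpd3+/+ and 283, 318 and 265 in Gdpd3-/- libraries, which overlapped (log2 fold change 0.16, -0.06 with TMM scaling, adjusted p = 0.488 by limma). Hist1h4i had 20.2, 21.6 and 20.7 against 9.84, 27.9 and 16.5, so its Gdpd3-/- libraries lay on both sides of the Gdpd3+/+ range. Hist1h4h (ENSMUSG00000060981.4, mm9 chr13:23622919-23623388, plus strand) had 5.77, 7.04 and 7.58 FPKM in Gdpd3+/+ and 37.7, 35.3 and 10.02 in Gdpd3-/- libraries. Its log2 fold change of 1.80 was the highest of the 66 members (95% interval 0.61 to 2.99, adjusted p = 0.108 by limma). Replicates 5 and 6 carried it, and without replicate 7 it was 2.42 (adjusted p = 0.00421 by limma, range 0.00421 to 0.330 over the alternatives). Hist2h4 (ENSMUSG00000091405.1, chromosome 3) went the other way, with 3.17, 3.46 and 3.21 FPKM in Gdpd3+/+ and 0.411, 0.179 and 3.46 in Gdpd3-/- libraries. Replicate 7 lay at the Gdpd3+/+ level, so the groups overlapped as deposited and the log2 fold change of -2.08 was not called (adjusted p = 0.233 by limma). With TMM scaling every Gdpd3-/- library was lower, at 0.371, 0.171 and 3.20 against 3.43 to 3.68, and the gene was not called either. Leaving out replicate 7 gave -3.16 (adjusted p = 0.0105 by limma, 0.0105 to 0.484 over the alternatives), on 14.1 recovered fragments in replicate 5 and fewer in replicate 6.

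**Figure D4:**
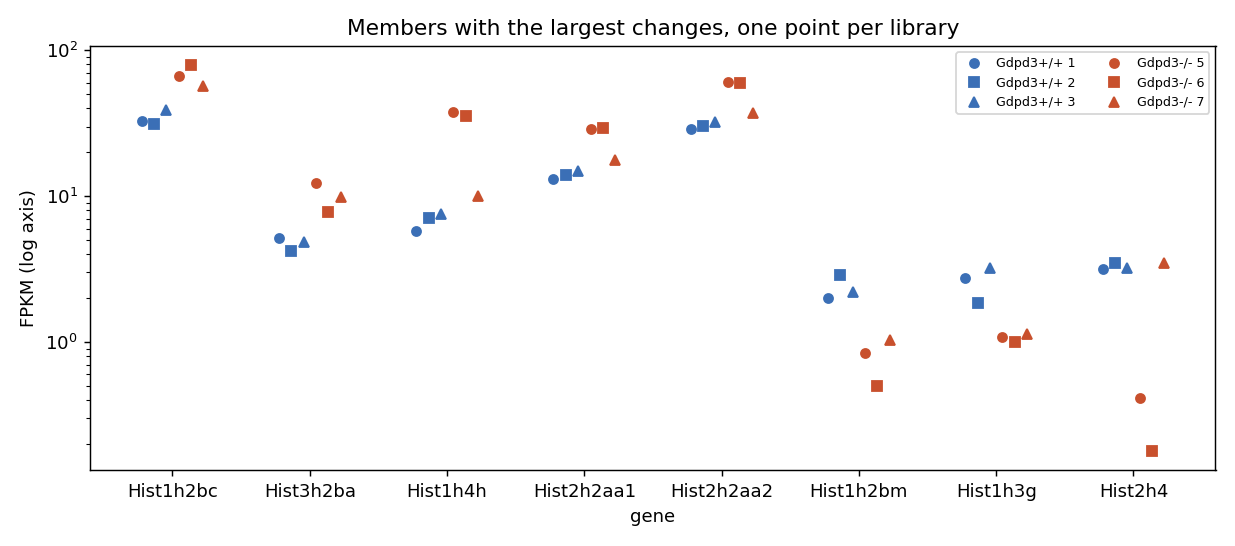
FPKM (log axis) of the members named for their change, and of Hist2h2aa1 and Hist2h2aa2, with 1 point per library; Gdpd3+/+ blue, Gdpd3-/- orange. Gdpd3-/- replicate 7 (orange triangle) is nearest to Gdpd3+/+ for Hist1h4h (10.02 FPKM) and lies at the Gdpd3+/+ level for Hist2h4 (3.46 FPKM).

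The H3 genes were low and mixed. Hist1h3e, the most abundant, had 13.5, 9.97 and 10.9 FPKM in Gdpd3+/+ and 13.5, 14.1 and 9.33 in Gdpd3-/- libraries. Hist1h3i had 6.25, 8.01 and 10.6 against 12.8, 11.6 and 10.7. Hist1h3d had 5.70, 7.28 and 9.59 against 3.27, 13.3 and 6.01. Of these only Hist1h3i separated the groups, narrowly and not with TMM scaling, and none of the 3 was called (adjusted p = 0.805, 0.211 and 0.823 by limma). Hist2h3c1 was also higher in every Gdpd3-/- library as deposited, but not with TMM scaling. It had 4.10 to 4.26 FPKM in Gdpd3+/+ and 4.48 to 6.92 in Gdpd3-/- libraries (adjusted p = 0.256 by limma). Hist1h3g (ENSMUSG00000062417.5, chromosome 13), whose loop differs from the common form, had 2.76, 1.86 and 3.20 FPKM in Gdpd3+/+ and 1.09, 1.01 and 1.14 in Gdpd3-/- libraries. The groups did not overlap (log2 fold change -1.17, adjusted p = 0.0948 by limma), on 12.3 to 19.4 recovered fragments per Gdpd3-/- library. Hist1h3f and Hist1h3c also lay lower in every Gdpd3-/- library (log2 fold changes -0.90 and -0.81, adjusted p = 0.179 and 0.216 by limma).

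No H1 gene separated the genotypes as deposited, while with TMM scaling Hist1h1b and Hist1h1e were lower in every Gdpd3-/- library. Hist1h1c had 31.2, 24.5 and 30.05 FPKM in Gdpd3+/+ and 33.7, 22.1 and 41.2 in Gdpd3-/- libraries. Hist1h1e had 28.8, 28.8 and 29.8 against 29.2, 27.3 and 30.1. Hist1h1b had 26.4, 28.5 and 29.5 against 26.7, 24.2 and 26.5. The log2 fold changes of the 5 H1 genes tested lay between -0.12 and 0.14. For Hist1h1e the 95% interval was -0.24 to 0.21, and all 5 log2 fold changes were below 0 with TMM scaling.

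Most divergent H2A genes had a higher level than their H2B partners, with ratios of mean FPKM from 0.378 to 665. The file holds 12 pairs whose starts lie 167 to 305 bases apart on opposite strands, and the H2A gene had the higher mean FPKM in 10 of them. For Hist1h2ap and Hist1h2br the means over 6 libraries were 727 and 1.09 FPKM. For Hist1h2ag and Hist1h2bj they were 177 and 8.06. Only Hist1h2ac with Hist1h2bc (19.3 and 50.9) and Hist1h2aa with Hist1h2ba (0.373 and 0.430) had more H2B. Hist1h2aa and Hist1h2ba rest on 2.08 to 11.2 recovered fragments per library, so which of these is higher is uncertain. Gene model length enters these levels, since the model of Hist1h2br is 2217 bases long and that of Hist1h2ap 519.

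Low members were set beside genes expected to be silent in marrow. Of 1316 vomeronasal (Vmn1r) and olfactory (Olfr) receptor genes, 2.05%, 2.81% and 2.89% had a value above 0 in Gdpd3+/+ replicates 1 to 3 and 11.3%, 13.0% and 16.1% in Gdpd3-/- replicates 5 to 7. Their 95th percentile was 0 FPKM in each Gdpd3+/+ library and 0.358, 0.652 and 0.329 in the Gdpd3-/- libraries. Of the 67 members, 66, 62 and 64 lay above it in Gdpd3-/- replicates 5 to 7. Hist1h2bm (0.497 FPKM) and Hist2h4 (0.179) in replicate 6 were below that level, so values this low in that library are not distinguished from it. Over the 203 Vmn1r genes alone the percentile in replicates 5, 6 and 7 was 0.537, 1.275 and 0.463 FPKM, with 63, 52 and 64 of 67 members above it. Hist2h4 in replicate 5 (0.411) and Hist1h3g (1.007) and Hist1h3f (1.273) in replicate 6 were then below it too. The part of this background in the histone values was not tested.

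The genes that make, bind and replace histones were examined as lists. None of 22 genes for histone mRNA transcription and 3' processing was called by limma (3 at an unadjusted p under 0.05, median log2 fold change -0.03 as deposited and -0.25 with TMM scaling). In this and the lists that follow, the share of all genes at such a p was 22.2%. Of the 22, 3 were higher and 1 lower in every Gdpd3-/- library as deposited, against 23.5% and 8.27% of all genes tested. With TMM scaling 1 was higher and 6 lower, against 14.1% and 15.8%. Their summed FPKM overlapped as deposited, but with TMM scaling it was 510 to 516 against 426 to 485. Without Gdpd3-/- replicate 7 Lsm1 was called higher and Cstf2 lower. In that fit 9.83% and 4.36% of all genes were called higher and lower, which holds for the lists that follow. Npat, the coactivator that switches these genes on, had 5.86 to 6.92 FPKM in Gdpd3+/+ and 5.78 to 7.04 in Gdpd3-/- libraries, and Slbp had 43.6 to 44.9 and 36.9 to 49.0. Casp8ap2 (adjusted p = 0.885), Hinfp (0.824), Lsm10 (0.270), Lsm11 (0.878), Zfp473 (0.417) and the nuclease Eri1 (0.328) were not called by limma either. None of 11 replication-independent variants was called by limma (2 at an unadjusted p under 0.05, median log2 fold change 0.02 and -0.21 with TMM scaling). H2afy, which encodes macroH2A1, was lowest in p, with 86.0 to 92.9 FPKM in Gdpd3+/+ and 126 to 156 in Gdpd3-/- libraries (log2 fold change 0.61, adjusted p = 0.0539 by limma, 0.0187 to 0.258 over the alternatives). It was called in 4 of the 15 alternatives, voom and the omission of Gdpd3-/- replicate 7 among them. H3f3a had 135 to 140 FPKM in Gdpd3+/+ and 151 to 167 in Gdpd3-/- libraries (adjusted p = 0.197 by limma), and H3f3b, H2afz, H2afx and H1f0 overlapped between the genotypes as deposited. Of the 11 variants 0 were lower and 2 higher in every Gdpd3-/- library as deposited. With TMM scaling 5 were lower and 1 higher, against 15.8% and 14.1% of all genes tested. Summed FPKM of the variants overlapped as deposited, but with TMM scaling it was 1727 to 1888 against 1535 to 1614. Of 19 chaperone and acetyltransferase genes none was called by limma (3 at an unadjusted p under 0.05, median log2 fold change -0.11 as deposited and -0.33 with TMM scaling). As deposited 2 of the 19 were lower and 3 higher in every Gdpd3-/- library. With TMM scaling 9 were lower and 2 higher, against 15.8% and 14.1% of all genes tested. Their summed FPKM overlapped as deposited, but with TMM scaling it was 1043 to 1070 against 815 to 997. Asf1b was lowest in p (37.4 to 39.9 against 23.9 to 29.7 FPKM, log2 fold change -0.56, adjusted p = 0.0649 by limma, 0.0161 to 0.287 over the alternatives). Asf1b was called lower with TMM scaling, with quantile normalization, at a mean FPKM of at least 1 and without Gdpd3-/- replicate 7. Chaf1a (adjusted p = 0.268) and Nasp (0.837) were not called by limma, and Chaf1a was called lower without that library.

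Summed FPKM of 24 S phase genes was 1252, 1310 and 1258 in Gdpd3+/+ and 937, 1099 and 1275 in Gdpd3-/- libraries, an overlap that rests on replicate 7. With TMM scaling the S phase sums did not overlap, at 1354 to 1394 against 845 to 1180. Of these 24 genes 7 were lower in every Gdpd3-/- library (13 with TMM scaling), and 6 had an unadjusted p under 0.05 by limma. Of the S phase genes, Rrm2, a subunit of ribonucleotide reductase, was called lower, with 88.7 to 96.6 FPKM in Gdpd3+/+ and 43.7 to 58.8 in Gdpd3-/- libraries (log2 fold change -0.93, adjusted p = 0.0334 by limma, 0.00503 to 0.199 over the alternatives), and Pcna had 115 to 120 and 95.1 to 139. Of 8 genes of G2 and M phase, Cdk1 fell (45.7 to 47.8 against 26.7 to 30.9 FPKM, log2 fold change -0.72, adjusted p = 0.0315 by limma, 0.00853 to 0.199 over the alternatives). All 8 were lower in every Gdpd3-/- library, also with TMM scaling, where 8.27% of all genes tested were as deposited and 15.8% with that scaling, Top2a and Mki67 among them (adjusted p = 0.0601 and 0.109 by limma, 0.00476 to 0.276 and 0.0192 to 0.338 over the alternatives). Top2a was called lower with TMM scaling, with quantile normalization, at a mean FPKM of at least 1 and by voom. With all 6 libraries 1 of 24 S phase genes and 1 of 8 G2 and M genes were thus called lower, against 0.616% of all genes tested. Without Gdpd3-/- replicate 7, Top2a and Mki67 were called lower beside Cdk1, and of the S phase genes Mcm4, Rrm1 and Ccne2 beside Rrm2. That is 3 of 8 and 4 of 24, where 4.36% of all genes were called lower. Summed FPKM of the 8 G2 and M genes was 289, 303 and 297 in Gdpd3+/+ and 172, 193 and 201 in Gdpd3-/- libraries, while that of the clustered histone genes overlapped. Median log2 fold changes were -0.09 for the S phase and -0.67 for the G2 and M list, and -0.31 and -0.89 with TMM scaling.

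Markers of other cells moved with the genotype beside these values. The sort had excluded cells stained for lineage markers of T, B, myeloid and erythroid cells. All 12 skeletal muscle markers were higher in every Gdpd3-/- library (11 with TMM scaling), as were 23.5% of all genes tested (14.1% with TMM scaling). They had a sum of 1327, 927 and 899 FPKM in Gdpd3+/+ and 11519, 16545 and 2210 in Gdpd3-/- libraries. The most abundant, Acta1, had 344, 238 and 232 against 2969, 4536 and 555, and none of the 12 was called (adjusted p of Acta1 = 0.0945 by limma, all 12 at an unadjusted p under 0.05). Without Gdpd3-/- replicate 7 all 12 were called higher (adjusted p = 0.00421 to 0.0205 by limma), as were 9.83% of all genes, and Acta1 had a log2 fold change of 3.78 in place of 2.87 (adjusted p = 0.00445 to 0.316 by limma over the alternatives). That library was the lowest of its group in this list, as it was for Hist1h2bc, the only member called. The same held for Hist1h4h, Hist2h2aa1, Hist2h2aa2, Hist2h2ac, Hist2h2be, Hist2h3c1 and Hist1h3i. It did not hold for Hist3h2ba, where replicate 6 was lowest (7.85 FPKM), or for Hist1h2be, where replicate 5 was (1.58 FPKM). For Hist3h2a, whose groups overlapped, replicate 7 was highest (22.5 FPKM). Of 10 neutrophil markers 9 were lower in every Gdpd3-/- library, against 8.27% of all genes tested, and Elane, Ltf, Camp, Ngp and Prtn3 were called lower by limma, against 0.616%. Their adjusted p values by limma were 0.0477, 0.0374, 0.0334, 0.0492 and 0.0315. All 5 calls were lost with no filter, with no trend and without any single Gdpd3+/+ library. Those of Elane and Ngp were also lost with a pseudocount of 1, with quantile normalization and without Gdpd3-/- replicate 6. S100a8, the most abundant, had 11686 to 13261 FPKM against 3060 to 6441, and the list summed to 32235, 29297 and 31098 against 13837, 8189 and 9173. Of 7 B and plasma cell markers in the table Xbp1 was called lower (log2 fold change -0.99, adjusted p = 0.0334 by limma, 0.00748 to 0.197 over the alternatives). The list summed to 2433, 2274 and 2902 against 1116, 1066 and 1933, of which Igj gave 2088, 1958 and 2551 against 915, 882 and 1692. Cd79b was higher in every Gdpd3-/- library but not called (39.5 to 39.9 against 50.2 to 58.7 FPKM, log2 fold change 0.41, adjusted p = 0.0863 by limma, 0.0422 to 0.361 over the alternatives). No erythroid (10), T cell (7) or megakaryocyte (6) marker was called by limma (1 in each at an unadjusted p under 0.05), with sums of 2841 to 4644, 6.26 to 7.43 and 227 to 331 FPKM in Gdpd3+/+ and 1844 to 4606, 4.89 to 12.4 and 208 to 519 in Gdpd3-/- libraries. Without Gdpd3-/- replicate 7 the T cell marker Cd2, 4 erythroid markers, 8 neutrophil markers and 3 B and plasma cell markers (Cd79a, Igj and Xbp1) were called lower, and Cd79b was called higher, where 4.36% and 9.83% of all genes were. The erythroid sums of replicates 5 and 6 lay below those of Gdpd3+/+, so their overlap rests on replicate 7. No marker in any of these lists was at 0 in all 6 libraries. No gene in the table, these markers included, was called without Gdpd3+/+ replicate 1. Their part in the histone values was not tested.

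**Figure D5:**
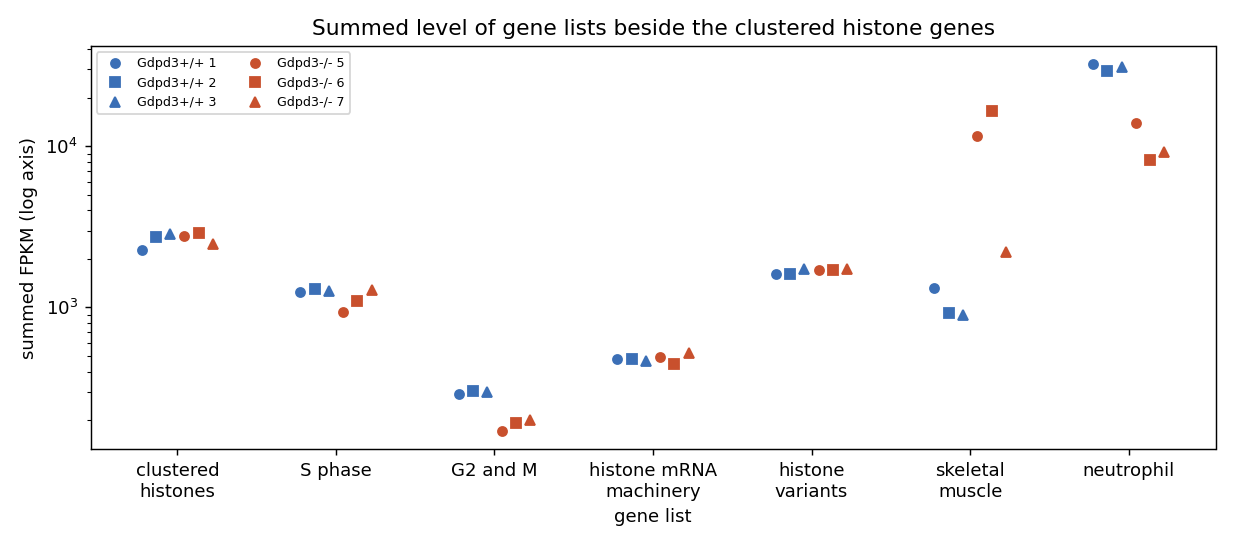
Summed FPKM (log axis) of the 67 clustered histone genes and of 6 gene lists, 1 point per library, Gdpd3+/+ in blue and Gdpd3-/- in orange. The histone sum overlaps between the genotypes, the G2 and M sum is lower in each Gdpd3-/- library (172 to 201 against 289 to 303), and the muscle sum is higher (2210 to 16545 against 899 to 1327).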

How the data were processed

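FPKM values of 6 SMART-Seq v4 libraries were deposited by the authors. Their processing notes name Trimmomatic, Trim Galore and cutadapt 1.16, STAR 2.6.1a, featureCounts 1.6.1 and mm9. A table of the authors' own comparison by DESeq2 holds fold changes, standard errors, Wald statistics and p-values, and was not used. FPKM times gene length gave whole hundredths of a fragment (within 0.01) for 100% of values in each library, from which depth was recovered. Reading these as fragments divided among n places rests on the values. Positions are mm9 as in the file; transcripts are GENCODE M21 (55 members matched by identifier and 12 by symbol), and promoter windows are RefSeq GRCm38.p6.

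Log2(FPKM + 0.1) of genes whose mean FPKM reached 0.05 was modelled with limma 3.58.1 (R 4.3.3, trend over intensity), genotype being the only term, with Benjamini-Hochberg adjustment over 24689 genes. Exact tests used SciPy 1.17.1. Functions were tested on simulated data. The study describes its samples as biologically independent; how the pooled animals were divided among libraries is not given in the sources used here, so p-values measure the spread between these libraries. The members and lists were chosen with earlier results of these data known. Named genes were members with an adjusted p under 0.05, the 3 most abundant per class, the 3 largest log2 fold changes each way at a mean FPKM of at least 0.5, members at 0, Gdpd3, and listed genes set by name or called; Hist1h2be, Hist1h2ac, Hist2h2aa1, Hist2h2aa2, Hist2h2ac, Hist2h2be, Hist1h3f, Hist1h3c, Hist3h2a, Hist2h2ab, Hist1h2al, Hist1h2br, Hist1h2aa, Hist1h2ba, Kit, Slamf1, Cd48, Itgam, Ly6g, Cd4, Cd8a, H2afy, S100a8, Igj, Cd79b and listed genes called only without replicate 7 were named after their values were seen. Hist2h3c1 was also named after its values were seen. Erythroid markers are given as counts and sums only. As alternatives the pseudocount was set to 0.01 or 1, the filter was dropped or raised to 1 FPKM, and the fit was repeated with TMM scaling (30% of M and 5% of A trimmed), quantile normalization, no trend, array weights and each library left out; voom on recovered fragments was added after seeing the data.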

Additional observations from a re-analysis of the deposited data

How the results depend on the processing

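No paired analysis was possible because the groups share no replicate number (1, 2 and 3 against 5, 6 and 7). Of 704 values for 47 genes named by rule under 15 alternatives, 567 kept direction and side of the threshold, 64 lost a call (10 genes), 18 gained a call (9 genes) and 55 changed sign (20 genes); the cause was not tested. Hist1h2bm and Hist1h3g rest on 9.38 to 19.4 recovered fragments per Gdpd3-/- library, and the effect of depth on the calls was not tested. The 422 genes called became 240 with array weights, 673 at a mean FPKM of at least 1, 213 with no filter, 153 without the trend, 225 with a pseudocount of 1, 903 by voom, and 0 to 3413 on leaving out a library (0 without Gdpd3+/+ replicate 1, 3413 without Gdpd3-/- replicate 7). The share called higher was 64.0%, 30.6% with TMM scaling and 36.6% with quantile normalization. Members called higher were 1, then 0 with TMM scaling, quantile normalization, array weights, no filter, no trend and a pseudocount of 1, 2 at a mean FPKM of at least 1, and 0 to 5 on leaving out a library, with 0 to 3 called lower. The members' median log2 fold change was 0.02, -0.20 with TMM scaling and -0.16 with quantile normalization, and the log2 ratio of their summed FPKM 0.05 and -0.17 with TMM scaling. Gdpd3 was called at a mean FPKM of at least 1 (-4.0, adjusted p = 0.0481 by limma) and without replicate 7 (range on leaving out a library -4.79 to -3.39).

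Among these 47 genes, log2 fold changes with another sign under TMM scaling were Hist1h1c -0.082, Hist1h2ag -0.20, Hist1h2bg -0.16, Hist1h3e -0.13, Hist1h4d -0.061, Casp8ap2 -0.15, H2afz -0.21, H3f3a -0.0019, Lsm11 -0.12, Nasp -0.17 and Pcna -0.18. With quantile normalization they were Hist1h2ag -0.19, Hist1h2bg -0.081, Hist1h3e -0.0038, Hist1h4d -0.036, Casp8ap2 -0.047, H2afz -0.18, Lsm11 -0.22, Nasp -0.034 and Pcna -0.15, and with array weights Hist1h2ag -0.031 and Npat 0.013. On leaving out a library the ranges that crossed 0 were Hist1h1c -0.060 to 0.39, Hist1h1e -0.044 to 0.026, Hist1h2ag -0.099 to 0.093, Hist1h2ao -0.14 to 0.038, Hist1h2ap -0.14 to 0.043, Hist1h2bg -0.050 to 0.20, Hist1h3d -0.72 to 0.28, Hist1h3e -0.019 to 0.28, Hist1h4i -0.70 to 0.045, Casp8ap2 -0.14 to 0.32, H2afz -0.013 to 0.052, H3f3b -0.10 to 0.030, Hinfp -0.47 to 0.081, Lsm11 -0.088 to 0.36, Nasp -0.032 to 0.11, Npat -0.074 to 0.067, Pcna -0.057 to 0.21 and Slbp -0.16 to 0.047.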
